A study of Mus musculus with 12 samples.

Results

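The sedentary wild-type mouse hypothalamus was described from the 3 wild-type control (WT) arrays among the 12 arrays of the series. These mice were male wild-type littermates of the Asmt-knockout line on the C57BL/6 background, a line that had been backcrossed for 3 generations. Their labelled age was 6 to 7 weeks, which the methods give as the start of swimming in the trained groups. They had no swimming training and did not carry the deletion within Asmt. The methods also describe sucrose preference, forced swim and open field tests of the mice, and do not say how long before collection. Hypothalamus was taken on ice, and total RNA of each mouse was labelled with Cy3 and hybridized to a single-color Agilent mouse array. Nothing in the labels says that animals were pooled. The WT samples labelled replicates 1, 2 and 3 are called mouse 1, mouse 2 and mouse 3 below, and their arrays lay on the same slide. No group was compared with another, so no test was run, and levels, ranks, detection and the spread between mice are given as description.

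The hypothalamus is a mosaic of small nuclei that controls feeding, body temperature, water balance, stress, reproduction, growth and the daily cycle. Much of its output is peptide. Magnocellular neurons send vasopressin and oxytocin to the posterior pituitary, parvocellular neurons release hormones that act on the anterior pituitary, and arcuate and lateral hypothalamic neurons signal hunger, satiety and wakefulness. Peptides are cut from larger precursors, so a neuron that uses them also needs convertases, amidating enzymes and granins of the secretory granule.

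Each array carried 59305 spots for 56605 non-control probes. Of these probes, 65.59% were well above background in mouse 1, 59.82% in mouse 2 and 60.18% in mouse 3, so mouse 1 stood somewhat above the others. No spot was saturated on any of the 3 arrays. Of 308 negative control spots per array, 2, 1 and 5 were marked as well above background, which gives the rate of the detection call on probes without a target. Signals are given as normalized log2 values, in which 1 unit is a 2-fold difference, and the highest value was 17.79. The lowest signal marked as well above background was 3.75 in mouse 1, 4.50 in mouse 2 and 4.51 in mouse 3, and values under that level say only that a probe was not well above background. Across the 32759 probes detected in all 3 mice, Pearson's r was 0.9951 between mice 1 and 2, 0.9957 between mice 1 and 3 and 0.9965 between mice 2 and 3, over probes that share the same arrays and are not replicates.

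The 3 hypothalami were not alike in every gene. Mouse 2 was high in genes of midbrain dopamine neurons, mouse 3 in genes of basal forebrain cholinergic neurons and some cortical genes, and mouse 1 in some immediate-early genes; these values are given in full below, and in tissue of mixed cells a larger number of cells of a type and more RNA per cell cannot be told apart.

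The 5 genes taken to mark the hypothalamus were detected in every mouse, where 63.7% of gene symbols were, and all 5 lay in the brightest 10% of the 27308 gene symbols on the array. The array reads each gene through probes of 60 bases, and the last 30 bases of the probes of these genes are shown because the level printed for a gene is the level of its probe. The mm9 coordinates, given by the array's annotation, cover the whole probe, and capitals mark AATAAA, the polyadenylation hexamer, which 8.13% of all 56605 probes hold in the same 30 bases on the probe's own strand.
Oxt, brighter probe, chr2:130402665-130402724, plus strand: gcgcttccttcgttccccatggccactgcc
Oxt, dimmer probe, chr2:130402038-130402358, plus strand: tctcccctgcggcccgggcggcaaaggacg
Avp, chr2:130406552-130406817, minus strand: ctgcgtggccgagcccgagtgccacgacgg
Hcrt, brighter probe, chr11:100623007-100623066, minus strand: cAATAAAgacgattctctgttggtgtgact
Hcrt, dimmer probe, chr11:100622484-100622543, minus strand: cagagtccacctggcaagggctggatgtaa
Pmch, chr10:87555031-87555090, plus strand: tgtaataatgtaagcgatatgcttgacgtg
Pomc, chr12:3960413-3960472, plus strand: agaacgcgcacaagaagggccagtgagggt
The dimmer Oxt probe spans 321 bases of the genome and the Avp probe 266, more than the 60 bases of the probe, so each bridges a gap in the genome as a probe across a splice junction does. The others each cover 60 adjacent bases.

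Oxt, the oxytocin precursor of the magnocellular neurons, had a normalized signal of 17.12, 16.94 and 17.09 in mice 1, 2 and 3, or 17.05 ± 0.10 (SD, n = 3), and ranked 17 of all gene symbols. Its dimmer probe read 15.90, 15.55 and 15.66, lower by 1.35 units on average, and on both probes mouse 1 was highest and mouse 2 lowest. Avp, the vasopressin precursor made in the same magnocellular nuclei and in the suprachiasmatic nucleus, read 15.20, 14.83 and 14.91 and ranked 534. Its mean was 14.98 ± 0.19, with mouse 1 highest.

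Hcrt, the orexin precursor of the lateral hypothalamus that sustains wakefulness, read 16.36, 16.80 and 16.59, or 16.58 ± 0.22, and ranked 62. Mouse 2 was the highest and mouse 1 the lowest. The gene has a second probe, which was detected in none of the mice, at 1.84, 2.48 and 1.85, so the distance between the probes has only a lower bound. The dimmer probe lies 463 bases away from the brighter one, on the side toward which transcription runs, and the brighter probe is the one that holds AATAAA. Pmch, the melanin-concentrating hormone precursor of another set of lateral neurons, read 14.42, 14.74 and 14.61 and ranked 744. Its mean was 14.59 ± 0.16, and mice took the same order as for Hcrt. Pomc, the arcuate precursor of the satiety peptide alpha-MSH, read 13.89, 13.52 and 13.20, or 13.54 ± 0.34, and ranked 1728. Among the 5 markers Pomc had the largest spread, with mouse 1 1.61-fold above mouse 3.

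Because probes differ in how strongly they bind and where they lie, ranks order probe signals and not amounts of transcript. Among the 7434 gene symbols with 2 or more probes detected in all 3 mice, the median range between probes of a gene was 3.21 log2 units, and it was 1 unit or more in 86.0% of them. Of the 11473 gene symbols with 2 or more probes, 3144 (27.4%) had a probe detected in all 3 mice and another detected in none, as Hcrt did. The spread between mice was far smaller, with a median SD of 0.083 over the 17405 detected gene symbols. In what follows a gene is read through its brightest probe, its rank percentile is the percentage of other gene symbols with a lower signal, and detected means well above background in all 3 mice.

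**Figure D1:**
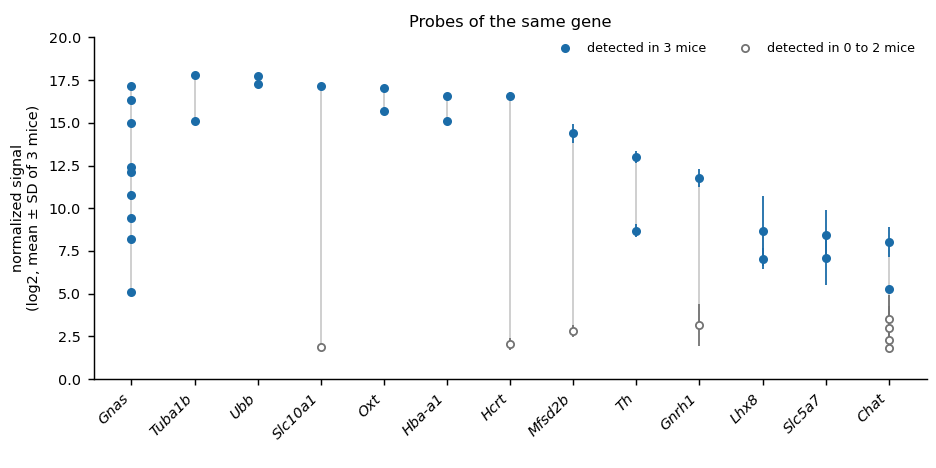
Normalized log2 signal (mean ± SD of 3 mice) of every probe of 13 genes, filled where the probe was detected in all 3 mice and open where it was not. Probes of 1 gene differ far more than mice do, as in Gnas, whose 9 probes were all detected and run from 5.08 to 17.13, while the open Hcrt probe has only an upper bound.

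Of all gene symbols, 17405 of 27308 (63.7%) were detected and 8019 (29.4%) were well above background in no mouse. Among the 8 hypothalamic releasing and posterior pituitary hormone genes, all 8 were detected and 5 lay in the brightest 10%. Behind Oxt came Sst, the somatostatin precursor that restrains growth hormone release, at 15.10 ± 0.12, then Avp, and Trh, the thyrotropin-releasing hormone precursor, at 14.45 ± 0.07. Th, the rate-limiting enzyme of dopamine synthesis, read 12.99 ± 0.35 and Ghrh, the growth hormone-releasing hormone gene, 11.70 ± 0.08. Gnrh1 and Crh, which drive the gonadal and adrenal axes, were the 2 genes of the list with a 2-fold range, that is, with the highest mouse at least 2-fold above the lowest, as 1.35% of all detected gene symbols had. Gnrh1 read 11.69, 11.33 and 12.34, and Crh read 10.26, 10.53 and 11.26. Mouse 3 was highest for both, 2.01-fold and 2.00-fold above the lowest mouse, so both only just reached 2-fold. The other Gnrh1 probe was detected in 1 mouse only, at 4.41, 3.14 and 1.93.

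Of the 9 arcuate peptide genes, 8 were detected and 4 lay in the brightest 10%. These were Cartpt, a satiety peptide gene, at 14.19 ± 0.21, Pdyn, the dynorphin precursor, at 13.79 ± 0.16, Tac2, the neurokinin B precursor of the neurons that pace GnRH release, at 13.75 ± 0.17, and Pomc. The hunger peptides lay lower. Agrp read 11.77, 11.53 and 11.40, and Npy read 11.14, 10.74 and 10.81. Kiss1, the kisspeptin gene, read 9.11 ± 0.06, and Galp was detected in no mouse. Of the 8 detected genes, 6 were highest in mouse 1, where 33.2% of all detected gene symbols were highest.

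Of the 6 lateral hypothalamic genes, 5 were detected, all 5 in the brightest 10%, with Nts, the neurotensin precursor, at 12.89 ± 0.13 the lowest of them. Qrfp, a precursor of a feeding peptide, was the exception and was detected in no mouse. All 5 suprachiasmatic peptide genes were detected, but apart from Avp their signals were lower. Grp read 9.52 ± 0.13, Vip, the peptide gene that couples clock neurons, 9.31 ± 0.35, Prok2 8.03 ± 0.16 and Nms 5.81 ± 0.16.

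Of 30 other neuropeptide and secreted peptide precursors with a probe, 25 were detected, 5 of them in the brightest 10%. The brightest were Penk, the enkephalin precursor, at 14.88 ± 0.18, Tac1, the substance P precursor, at 14.59 ± 0.16, Gal at 13.92 ± 0.08, Cck at 13.16 ± 0.08 and Adcyap1, the PACAP gene, at 12.97 ± 0.37. In the middle range Pnoc read 11.98 ± 0.09, Apln 10.93 ± 0.06, Nmb 10.88 ± 0.12, Npvf 10.61 ± 0.34, Nucb2 10.60 ± 0.02, Calca 10.53 ± 0.27 and Nxph4 10.03 ± 0.15. Lower still, Pthlh read 9.25, Bdnf 9.21, Npb 8.69, Npw 8.24, Igf1 7.91, Npff 7.85, Nppc 7.69, Ucn3 7.55, Gcg 7.03, Adm 6.99, Edn1 6.59, Pth2 6.26 and Nmu 5.66, each detected in all 3 mice. Nmu, the neuromedin U gene, was the only one of the list with a 2-fold range, at 5.10, 5.69 and 6.20. Rln3 was detected in 2 mice and Calcb in 1, while Ucn, Ucn2 and Edn3 were detected in none.

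**Figure D2:**
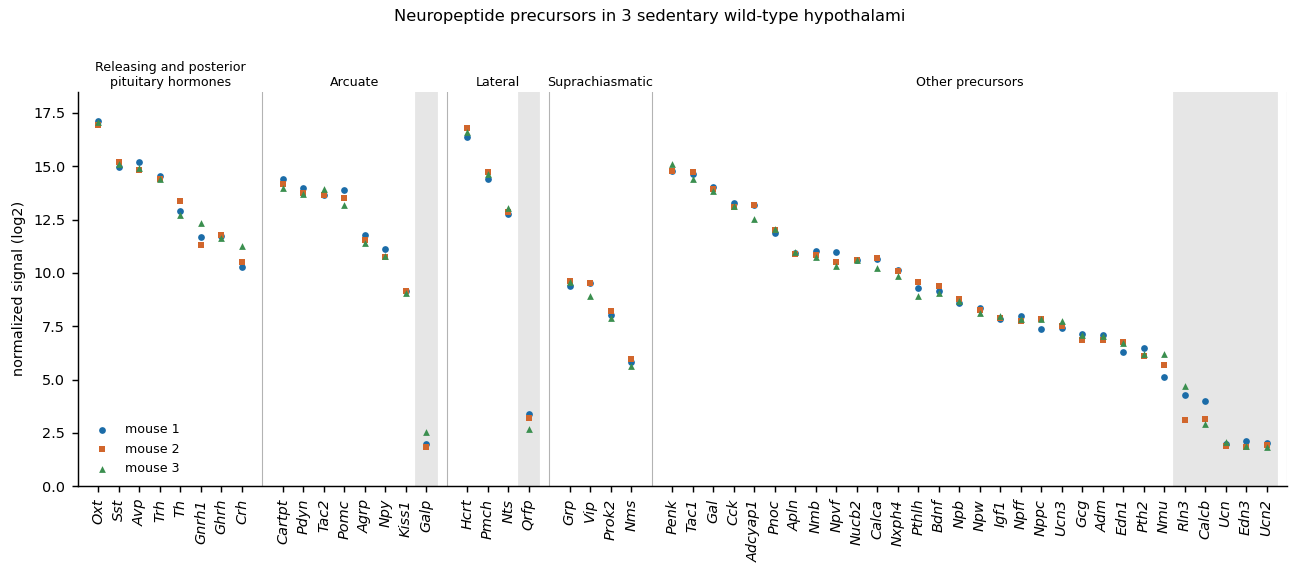
Normalized log2 signal of neuropeptide and related genes in each of the 3 mice, in 5 lists, with each gene shown once. Grey bands mark genes not detected in all 3 mice; the points of a gene lie close together beside the distance between genes, with Oxt at 17.05 and Ucn2 at 1.93 on average.

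The machinery of the secretory granule was among the brightest lists. All 12 genes were detected, 10 in the brightest 10%, with a median percentile of 98.1. Cpe, the carboxypeptidase that trims peptides, read 17.35 ± 0.05 and ranked 7, Pcsk1n, an inhibitor of a prohormone convertase, 16.14 ± 0.03, Scg2 15.97 ± 0.09 and Chgb 15.95 ± 0.04. Both convertases were detected, Pcsk2 at 13.77 ± 0.11 and Pcsk1 at 10.56 ± 0.15, and Pam, the amidating enzyme, read 10.84 ± 0.10.

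Receptors for these peptides were mostly detected at middling signals. The median percentile of 47 receptor genes was 59.3. That of the other neuropeptide precursors was 56.9, of the suprachiasmatic peptides 62.4 and of the arcuate peptides 81.5. Releasing and posterior pituitary hormones had 93.8 and lateral hypothalamic peptides 95.5. Of the 47 receptor genes, 42 were detected and 3 lay in the brightest 10%. Those 3 were Oprl1, the nociceptin receptor, at 14.16 ± 0.03, Oprm1, the mu opioid receptor, at 13.41 ± 0.08, and Adcyap1r1, the PACAP receptor, at 12.88 ± 0.05, followed by Calcr at 11.87 ± 0.15. The brightest Oprm1 probe shares a stretch of 20 bases with 81 probes of other genes or of no gene symbol, and 4 of its 7 probes were detected. The leptin receptor gene Lepr read 8.69 ± 0.11, the melanocortin receptor genes Mc3r and Mc4r 10.71 ± 0.15 and 8.12 ± 0.11, and the orexin receptor genes Hcrtr1 and Hcrtr2 9.63 ± 0.05 and 8.28 ± 0.19. Avpr1b and the melatonin receptor gene Mtnr1b were detected in no mouse, and Mtnr1a, the other melatonin receptor gene, was detected at 6.25 ± 0.13.

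Of 23 genes of transmitter synthesis and transport, 16 were detected and 9 lay in the brightest 10%. Slc32a1, the vesicular GABA transporter, read 16.16, 16.10 and 16.40, the highest of the list, and ranked 113. Slc6a9, the glial glycine transporter, followed at 14.71 ± 0.11. The GABA-synthesizing enzymes Gad1 and Gad2 read 13.99 ± 0.11 and 13.90 ± 0.15, close to Ddc, the aromatic amino acid decarboxylase, at 13.93 ± 0.18. Slc17a6, the vesicular glutamate transporter of subcortical neurons, read 13.20 ± 0.15. Slc17a7, its cortical counterpart, was at 4.02, 1.84 and 1.82 and was well above background in mouse 1 alone. Hdc, the histamine-synthesizing enzyme of the tuberomammillary nucleus, read 12.41 ± 0.30. Slc6a2 and Slc6a5, the noradrenaline and neuronal glycine transporters, were detected in no mouse, and the serotonin genes Tph2 and Slc6a4 in 1 mouse each. The 4 genes with a 2-fold range or more were Slc6a3, Slc5a7, Slc18a3 and Chat.

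Transcription factors that pattern the hypothalamus were detected almost throughout, at middling signals. Of 42 genes 39 were detected and none went undetected in every mouse, while 1 lay in the brightest 10%. That was Otp, needed for neuroendocrine neurons, at 12.95 ± 0.20. Behind it came Lhx6 at 12.69 ± 0.22, Pou3f2 at 11.37 ± 0.06 and Tbx3 at 11.24 ± 0.15. The brightest Lhx6 probe shares 20 bases with 80 probes of other genes or of no gene symbol, and its other probe, at 1.85, was not detected. Nkx2-1, the defining factor of the ventral hypothalamus, read 10.69, 10.62 and 10.55, and Nr5a1, the factor of the ventromedial nucleus, 10.02, 9.66 and 9.56. Foxa1 had a 2-fold range and was highest in mouse 2. Sim1, Bsx and Foxa2 were each detected in 2 mice.

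Of 29 nuclear receptor genes 28 were detected, 6 in the brightest 10%, and none had a 2-fold range. Rxra read 13.89 ± 0.03, Rora 13.53 ± 0.06, Rxrb 13.37 ± 0.06 and Nr2f1 13.31 ± 0.06, and the glucocorticoid receptor gene Nr3c1 13.05 ± 0.02. The estrogen receptor gene Esr1 read 10.08 ± 0.07. Of 18 clock genes 17 were detected, led by Tef at 15.26 ± 0.06, Csnk1d at 14.62 ± 0.03, Dbp at 14.03 ± 0.21 and Cry2 at 13.75 ± 0.03. Of the 17, 10 were highest in mouse 1, against 33.2% of all detected gene symbols. The differences were small. The median deviation of the 17 from the mean of the 3 mice was 0.028 in mouse 1, and none had a 2-fold range. Per1, a clock gene that light also induces, read 13.15, 12.40 and 12.68.

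Asmt, the gene disrupted in the knockout line, encodes the last enzyme of melatonin synthesis. In these mice without the engineered deletion it read 1.86, 1.86 and 1.90 on its single probe and was well above background in none. C57BL/6 mice are known for making little melatonin. Of 11 melatonin and serotonin genes 6 were detected, with Ddc brightest and Maob, Maoa and Sult1a1 at 11.92 ± 0.10, 10.61 ± 0.07 and 10.33 ± 0.11. Aanat, the rhythmic enzyme that acts before Asmt, read 8.37, 7.87 and 8.40, on 1 of 3 probes that was detected. Tph1 was detected in no mouse.

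The genes of neurons, astrocytes and oligodendrocytes were detected without exception. All 23 neuron genes were detected and 22 lay in the brightest 10%, led by Stmn3 at 16.56 ± 0.07, Uchl1 at 16.45 ± 0.05, Ndrg4 at 15.82 ± 0.10 and Eno2 at 15.70 ± 0.02. All 20 astrocyte genes were detected, 15 in the brightest 10%, led by Apoe at 16.96 ± 0.03, Aldoc at 16.70 ± 0.02, Clu at 16.54 ± 0.01 and Mlc1 at 15.47 ± 0.03. The glutamate transporter Slc1a2 read 11.50 ± 0.00, as its SD was 0.0022. All 18 genes of myelinating oligodendrocytes were detected, 11 in the brightest 10%, among them Mal at 15.06 ± 0.17, Trf at 15.05 ± 0.15 and Cnp at 13.75 ± 0.07. Of these 18 genes, 11 were highest in mouse 3 and 1 in mouse 1, where 31.3% and 33.2% of detected gene symbols were highest.

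The smaller populations followed at lower signals. All 11 genes of oligodendrocyte precursors were detected (median percentile 60.8), led by Bcas1 at 15.34 ± 0.15, Gpr17 at 13.49 ± 0.06, Ptprz1 at 13.49 ± 0.04 and Pdgfra at 11.41 ± 0.07, and Matn4 had a 2-fold range. All 20 microglia genes were detected (median percentile 74.2), led by Ctss at 13.84 ± 0.01, Csf1r, the receptor that microglia need to survive, at 13.56 ± 0.03 and Siglech at 12.89 ± 0.32. All 18 endothelial genes were detected, led by Egfl7 at 13.74 ± 0.05, Ly6c1 at 13.26 ± 0.17, Slc2a1 at 13.17 ± 0.15 and Flt1 at 12.96 ± 0.05. Of 12 genes of pericytes and smooth muscle 11 were detected, led by Myl9 at 12.41 ± 0.14, Vtn at 12.39 ± 0.11, Acta2 at 11.70 ± 0.06 and Tagln at 10.53 ± 0.23, and Des was detected in no mouse.

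Genes of the cells that line the ventricle were detected as well. Of 17 genes of tanycytes, the radial glia of the ventricle floor, 15 were detected, led by Prdx6 at 15.18 ± 0.05, Ptn at 12.87 ± 0.10 and Vim at 11.37 ± 0.07. Rax, a defining tanycyte factor, read 8.33, 8.17 and 7.75, and Dio2, the tanycyte enzyme that activates thyroid hormone, 9.95 ± 0.06. All 17 ependymal genes were detected, led by Tppp3 at 14.86 ± 0.09, Rarres2 at 12.22 ± 0.06, Cfap126 at 11.73 ± 0.10 and Dynlrb2 at 11.66 ± 0.17. Of them, 14 were highest in mouse 2, where 35.5% of all detected gene symbols were highest, and their median deviation from the mean of the 3 mice was 0.12 there.

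**Figure D3:**
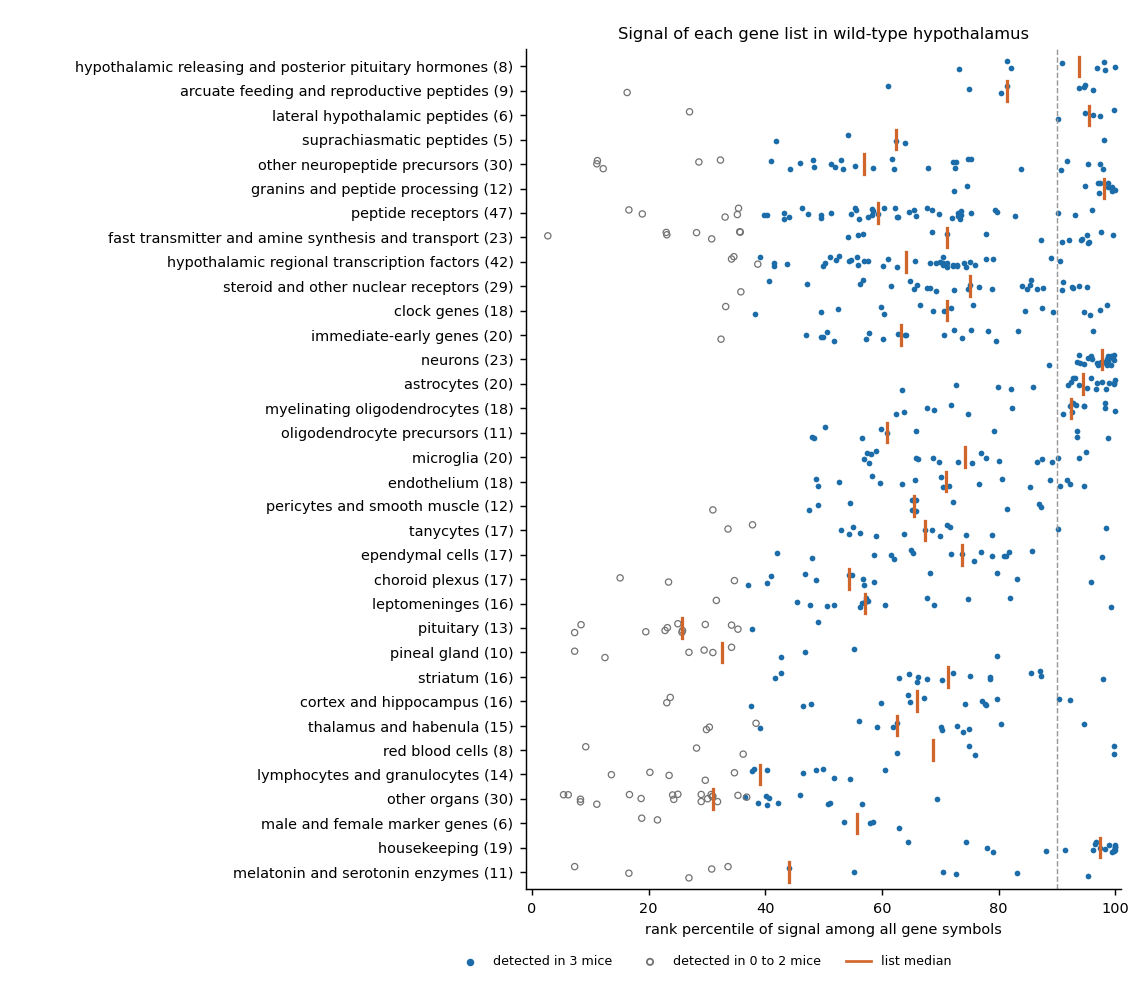
Rank percentile of signal among all gene symbols for each member of 34 gene lists, filled where detected in all 3 mice and open where not, with the number of members in brackets, the list median as a bar and a dashed line at the brightest 10%. Neuron, astrocyte and granule genes crowd to the right, and pituitary, pineal and other organ genes lie to the left.

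Genes of the pituitary and pineal glands were mostly undetected, and those of the choroid plexus and meninges mostly detected. Of 13 pituitary genes 2 were detected, Lhb at 7.15 ± 0.02 and Tshb at 5.05 ± 0.02, and 7 were detected in no mouse, among them Gh and Prl, the most abundant hormone genes of the gland, together with Gnrhr, Pou1f1, Ghrhr, Pitx1 and Tbx19. In mouse 2 alone Cga and Fshb were well above background, at 5.90 and 4.92, and the list was brightest there, with a summed linear signal of 379 against 255 in mouse 1 and 265 in mouse 3. Of 10 pineal genes 4 were detected, Rom1, Aanat, Crx and Sag, and 5 were detected in no mouse, which were Lhx4, Chrna3, Tph1, Gngt1 and Asmt. Of 17 choroid plexus genes 14 were detected, led by Enpp2 at 14.12 ± 0.07, Clic6 at 11.91 ± 0.21, Prlr at 11.48 ± 0.07 and Col8a1 at 10.07 ± 0.09. Ttr, the most abundant transcript of the choroid plexus, read 7.15, 8.18 and 8.90, a range of 3.35-fold, and Kcne2 had a 2-fold range as well, while Slc4a5 and Tmem72 were detected in no mouse. Of 16 leptomeningeal genes 15 were detected, led by Ptgds at 15.69 ± 0.02, Dcn at 11.75 ± 0.10, Col1a2 at 10.87 ± 0.16 and Nov at 10.16 ± 0.37. Slc47a1 had a 2-fold range. None of the 16 was highest in mouse 2, where 35.5% of all detected gene symbols were highest. The median deviation of the leptomeningeal list from the mean of the 3 mice was -0.235 in mouse 2.

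Genes of adjoining brain regions were mostly detected. All 16 striatal genes were detected, led by Penk, Rasd2 at 12.43 ± 0.02, Rgs9 at 12.39 ± 0.06 and Rxrg at 12.21 ± 0.02, and 9 were highest in mouse 3, against 31.3% of all detected gene symbols, with a 2-fold range in Adora2a. Of 16 cortical and hippocampal genes 14 were detected, led by Camk2a at 13.24 ± 0.11, Rprm at 12.91 ± 0.12, Wipf3 at 11.46 ± 0.15 and Itpka at 11.23 ± 0.26. Emx1 was detected in no mouse, and Tbr1 and Neurod6 had a 2-fold range. Of 15 thalamic and habenular genes 12 were detected, led by Tac2, Rgs16 at 11.57 ± 0.08, Pou4f1 at 10.90 ± 0.33 and Nwd2 at 10.76 ± 0.15, and Gpr151 was detected in no mouse.

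Globin transcripts were bright. Of 8 red cell genes 5 were detected, a share near the 63.7% of all gene symbols. The alpha globin genes Hba-a1 and Hba-a2 read 16.57 ± 0.19 and 16.46 ± 0.15, both lowest in mouse 1, Hbb-b1 read 10.75, 11.16 and 11.09 and Hbb-b2 10.89 ± 0.21, and Ahsp was detected in no mouse. The brightest Hba-a1 and Hba-a2 probes each share 20 bases with 1 probe of another gene symbol or of none, and these near-identical copies may share signal. Of 14 lymphocyte and granulocyte genes 9 were detected, also near the 63.7% of all gene symbols. They were led by S100a9 at 9.02 ± 0.42, Cd4 at 8.09 ± 0.12, Camp at 7.67 ± 0.09 and Cd3e at 7.30 ± 0.20. Ms4a1, Cd8a, Ngp and Cd79a were detected in no mouse.

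Genes used mainly by other organs were low. Of 30 genes of other organs 11 were detected and 14 were detected in no mouse, with a median percentile of 30.9. The brightest were Gkn1 at 10.23 ± 0.36, Acta1 at 8.43 ± 0.08, Myh4 at 7.53 ± 0.19 and Nppa at 7.45 ± 0.30, and Myh6 had a 2-fold range. Of 6 genes that mark sex, the Y-linked Eif2s3y, Kdm5d, Ddx3y and Uty were detected in all 3 mice, from 9.39 ± 0.12 down to 7.93 ± 0.18 in mice labelled male, and Sry and Xist in none. All 19 housekeeping genes were detected, 14 in the brightest 10%, and their median SD was 0.040, where that of all detected gene symbols with signals from 12.02 up was 0.055. The brightest were Tuba1b, Ubb and Ppia, with Actb at 16.88 ± 0.02.

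Gene families differed widely in detection. Of 1104 olfactory receptor symbols 56 (5.1%) were detected, of 260 vomeronasal receptors 15 (5.8%), of 38 taste receptors 2 (5.3%), of 42 Hox genes 4 (9.5%), of 62 defensins 8 (12.9%) and of 55 keratin-associated proteins 17 (30.9%), all under the 63.7% of all gene symbols. By contrast 81 of 84 cytosolic ribosomal protein symbols (96.4%), all 45 complex I subunits, all 21 ionotropic glutamate receptor subunits and 342 of 370 zinc finger proteins named Zfp (92.4%) were detected. Between them lay the GABA-A receptor subunits with 15 of 19 detected, synaptotagmins with 15 of 17, potassium channels with 82 of 98 and clustered protocadherins with 24 of 36. Ribosomal proteins and complex I subunits had median percentiles of 99.2 and 97.9, and the zinc finger proteins 62.2.

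The 20 brightest gene symbols were, in order, Tuba1b, Aldoa, Ubb, Lrrc17, Rn18s, Ppia, Cpe, Cox6a1, Gabarapl1, Slc10a1, Sparcl1, Atp9a, Gnas, 2610028H24Rik, Chchd2, Zwint, Oxt, Rpl10, Exosc2 and Elk1, from 17.77 down to 16.99. They include tubulin, the glycolytic enzyme Aldoa, ubiquitin, ribosomal RNA, an astrocyte protein (Sparcl1) and a stimulatory G protein subunit (Gnas), and Oxt was the only neuropeptide gene among them. Slc10a1, the bile acid transporter of hepatocytes, stood at rank 10 with 17.20, 17.20 and 17.12, but its other probe was not detected, at 1.90. The brighter probe is shown with the other one because they disagree, with capitals again marking AATAAA.
Slc10a1, brighter probe, chr12:82056539-82056598, minus strand: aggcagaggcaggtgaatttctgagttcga
Slc10a1, dimmer probe, chr12:82054180-82054239, minus strand: ggaAATAAActacaactggtagttctaact
The brighter Slc10a1 probe shares 20 bases with 2 probes of other genes or of no gene symbol, and the brightest Elk1 probe with 12. Of the 20 brightest gene symbols 6 had such a probe, against 10.04% of the brightest 10% of gene symbols and 4.48% of all of them. The part of shared stretches in these signals was not tested.

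The spread between mice fell as signal rose. When the detected gene symbols were split in 4 by signal, the median SD of the dimmest, from 4.38 to 7.72, was 0.170, and that of the next 3 was 0.093, 0.065 and 0.055. For 298 detected probes printed on 10 spots each, the median SD between single spots on an array, before normalization, was 0.039. The median SD of the same probes between mice was 0.046, taken on normalized means of their spots. A mean of 10 spots varies less than a single spot, so these SDs are not like for like. Over 99 of 100 detected gene symbols the SD stayed within 0.59. Quantile normalization gives the same value to the same rank on each array, so the spread of the very brightest probes is understated, and Ppia read 17.48 in all 3 mice. The 5 gene symbols with the smallest SD in the brighter part of the detected range were Ppia, Scamp5, Dnajc30, Eci1 and Eif5.

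**Figure D4:**
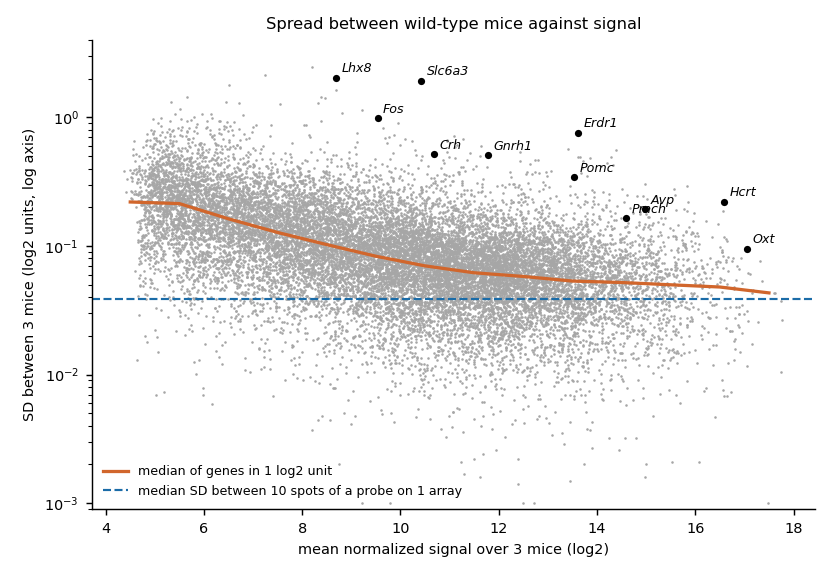
SD between the 3 mice (log axis, values under 0.001 drawn at 0.001) against mean normalized log2 signal for the 17405 detected gene symbols, with the running median as a line and the median SD between 10 spots of a probe, 0.039, as a dashed line. Lhx8 (SD 2.04), Slc6a3 (1.92) and Fos (0.99) stand far above the median at their signal.

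Of the 17405 detected gene symbols 235 (1.35%) differed by 2-fold or more between the highest and the lowest mouse, 186 of them in the dimmest of the same 4 classes and 3 in the brightest. The count was 105 without mouse 1, 147 without mouse 2 and 166 without mouse 3, and 55 after normexp background correction. The highest mouse was mouse 1 for 39, mouse 2 for 96 and mouse 3 for 100 of them. Where these genes had another detected probe, 23 of 39 such probes (59.0%) peaked in the same mouse, against 41.5% of 11199 such probes over all detected gene symbols. In the brighter part of the detected range the genes with the largest SD included Slc6a3, Erdr1, Acsl3, Hbp1, Kcnq1ot1, Rian, Xlr4b, Metrn, Cd300lf, Tbx22, Prmt1, Ret, Mfsd2b, Egr1, Chmp1a, St6galnac1, Crh and Meis2, in falling order of SD. Erdr1, a gene of the pseudoautosomal region of the sex chromosomes, read 14.49, 13.15 and 13.19, 2.53-fold higher in mouse 1 than in mouse 2. Kcnq1ot1 and Rian, long noncoding RNAs of imprinted regions, read 10.51, 11.78 and 11.55, and 10.73, 10.43 and 11.71. Another probe of each gave a different order, with Kcnq1ot1 at 11.24, 11.35 and 11.01 and Rian at 10.49, 9.68 and 9.83. Acsl3 read 10.29, 11.64 and 11.35 on its brightest probe and 9.41, 9.55 and 9.60 on the other, which was nearly even. The other probes of Cd300lf and Mfsd2b were detected in no mouse. Among the 20 gene symbols with the largest SD, 8 of 13 other detected probes peaked in the same mouse.

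Slc6a3, the dopamine transporter that defines midbrain dopamine neurons, read 9.63, 12.61 and 9.01, and mouse 2 was 12.1-fold above mouse 3. Genes of midbrain dopamine neurons were then gathered into a list after these values were seen, so its counts are description. Of 20 genes 17 were detected, and 15 of the 17 were highest in mouse 2, against 35.5% of all detected gene symbols. The exceptions were En2 and Slc10a4, which were highest in mouse 3. A 2-fold range was found in 7 genes, against 1.35% of all detected gene symbols, and 1 of the 7 was Slc10a4, at 9.05, 10.13 and 10.44. Chrna6, a nicotinic receptor subunit of these neurons, read 7.83, 10.01 and 7.30, and Lmx1a, a factor that specifies them, 7.79, 9.47 and 7.88. Ret, the receptor for glial-derived neurotrophic factor, read 9.90, 10.94 and 10.06, Foxa1 8.84, 9.96 and 8.53, and Pitx3 4.86, 6.26 and 4.95. Foxa2 was well above background in 2 mice, at 4.02, 7.63 and 4.13. Th, which hypothalamic neurons also make, read 12.88, 13.38 and 12.70, and its other probe 8.51, 9.12 and 8.46, so that mouse 2 was highest on both. The summed linear signal of the list was 45354, 63022 and 41761, and En1, a defining factor of these neurons, was detected in no mouse. A larger share of midbrain tissue in mouse 2 and more RNA of these genes per cell cannot be told apart here.

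Mouse 3 stood apart in cholinergic genes. Lhx8, a factor of basal forebrain cholinergic neurons, read 7.71, 7.32 and 11.04, and mouse 3 was 13.2-fold above mouse 2. Its other probe read 6.91, 6.52 and 7.73. A list of 12 such genes, also gathered after the values were seen, also holds Slc10a4 and had 11 detected. Of these, 9 were highest in mouse 3, against 31.3% of all detected gene symbols, and 7 had a 2-fold range, against 1.35%. The exceptions were Isl1 and Nkx2-1, which were highest in mouse 1 and had no 2-fold range. The summed linear signal of the list was 14102, 12610 and 21737 with Zic1 as the brightest member. Slc5a7, the choline transporter, read 7.88, 7.42 and 10.08, and 6.60, 5.83 and 8.82 on its other probe. Slc18a3, the vesicular acetylcholine transporter, read 7.78, 7.37 and 9.80. Chat, the enzyme that makes acetylcholine, read 7.54, 7.51 and 9.05 on a probe that shares 20 bases with 4 probes of other genes or of no gene symbol, and 5.28, 5.15 and 5.36 on the other detected one. Ngfr, a neurotrophin receptor, read 9.59, 9.29 and 10.99.

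Some telencephalic genes were highest in the same mouse. Tbr1, a factor of cortical glutamate neurons, read 9.16, 9.16 and 10.60. Of the 14 detected cortical and hippocampal genes 8 were highest in mouse 3, against 31.3% of all detected gene symbols, with a median deviation of 0.10 there. Another 4 were highest in mouse 1, among them Camk2a at 13.36, 13.23 and 13.14. The last 2 were highest in mouse 2, Neurod6 at 4.47, 5.76 and 4.92 and Neurod2 at 6.66, 7.13 and 7.01. Meis2 read 10.08, 9.95 and 10.89. Gnrh1 and Crh were also highest in mouse 3, and the part of neighbouring forebrain tissue in their values was not tested. Of Oxt, Avp, Hcrt, Pmch and Pomc, none was highest in mouse 3.

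In mouse 1 many immediate-early genes, which neurons switch on within minutes of activity, stood highest. Of 20 genes 19 were detected, and 13 of the 19 were highest in mouse 1, where 33.2% of all detected gene symbols were highest. Fos read 10.68, 9.05 and 8.88, 3.46-fold above the lowest mouse, Egr2 7.93, 5.86 and 6.59, Egr1 11.56, 10.65 and 10.60, and Junb 11.72, 10.92 and 11.18. The brightest of the list, Jund at 14.21 ± 0.03, Ier5 at 11.92 ± 0.06 and Jun at 11.45 ± 0.16, were more even. The time of day of collection and the time from handling or testing to collection are not given in the sources used here, and their part in these values was not tested.

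**Figure D5:**
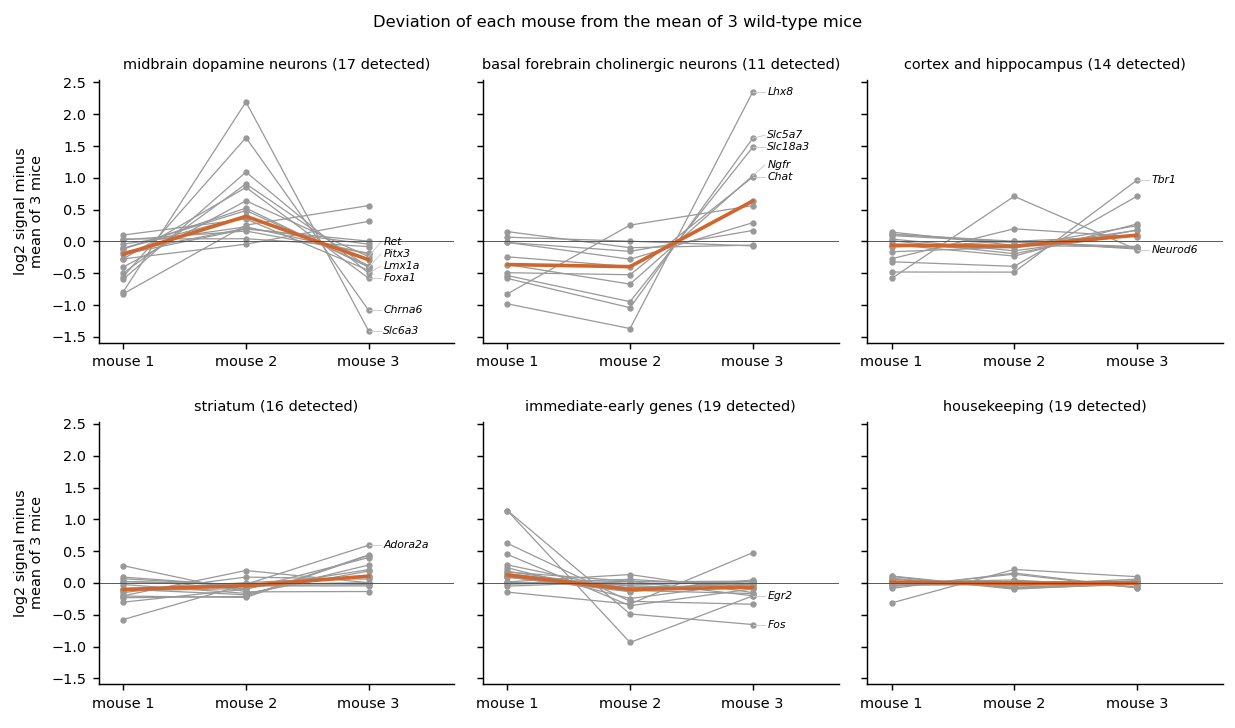
Deviation of each mouse from the mean of the 3 mice (log2 units) for the detected members of 6 gene lists, with a grey line joining the values of a gene, the list median in orange and names beside some of the genes with a 2-fold range. Median deviations reach 0.40 in mouse 2 for midbrain dopamine genes and 0.64 in mouse 3 for basal forebrain cholinergic genes, and the median of the housekeeping genes stays near 0; mice have no order.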

How the data were processed

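Hypothalamus RNA of 3 WT mice was read from single-color arrays. Feature Extraction 10.7.1.1, named in the submitters' processing notes, gave the scanner output that the authors deposited, in which each value is the intensity of a spot with background subtracted within the array. The authors also deposited a table of raw intensity and of log2 values, quantile-normalized over all 12 arrays in GeneSpring, and the log2 values of the WT arrays are the levels used here. Its raw intensity lay within 0.01 on the log2 scale of the scanner output for 56513 to 56588 of 56605 probes per array. The other 18 value columns belong to the other groups and were not used, nor were the authors' tables of fold changes and p-values between groups.

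A probe was detected on an array when the scanner's flag marked it as well above background, on over 50% of its spots where it had several. A gene symbol was read through the probe with the highest mean, and 10246 probes without a symbol were left out of gene counts. Levels are means ± SD over 3 mice; the number of arrays limits the precision. The gene table was tested on simulated data with known changes. No model was fitted and no test was run. Normexp and quantile alternatives used limma 3.58.1 in R 4.3.3, and other steps pandas 2.3.3 and numpy 2.4.6 under Python 3.11.15, with plots by matplotlib 3.10.9.

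The members, the 34 gene lists and the alternatives were chosen with earlier results of these data known. The genes named are the 5 markers, all members of the 5 neuropeptide lists, the 20 brightest gene symbols, the 20 with the largest and 5 with the smallest SD among detected symbols above their median signal, Asmt, and of each other list the 4 brightest members, those detected in no mouse where 8 or fewer, and those with a 2-fold range. Other genes, and the midbrain dopamine and basal forebrain cholinergic lists, were chosen after their values were seen. Some genes that these rules name are not reported here. Of the listed genes 1 (Insl3) had no probe.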

Additional observations from a re-analysis of the deposited data

How the results depend on the processing

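The count of detected gene symbols lay between 12941, when every probe of a gene had to be well above background, and 19922, when a positive and significant signal was enough; other detection rules gave counts between these. The count with a 2-fold range was less stable. It was 235 as reported, 55 after normexp background correction, 399 with probes of a gene averaged, 3227 with no filter on detection, and 105 to 166 when a mouse was left out (105 without mouse 1 and 147 without mouse 2), which also takes the range over fewer mice. Of the 55, 50 were among the 235, and of the 399, 181. Scaling by the 75th percentile, no scaling and quantile normalization over the WT arrays alone gave 225 to 234. The counts of genes highest in mouse 1, 2 or 3 in the midbrain dopamine, cholinergic, cortical, striatal and immediate-early lists stayed within 2 genes of those reported under 5 settings chosen after seeing the data. Averaging probes moved the rank percentile of 137 of 248 named genes by over 5 points, Oprm1 the most, by 43.4 points, and normexp moved 11. Averaging kept 1664 of the 2730 gene symbols of the brightest 10% and moved the count of members in it by over 1.5 times in 14 of 34 lists. The count of members with a 2-fold range moved that far in 5, 8 and 9 of 34 lists without mouse 1, 2 and 3. No paired analysis was possible because no groups were compared. Dim genes have only a bound, and the spread of the brightest is understated.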
